A study of Mus musculus with 4 samples.

Results

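The cells described here were human lymphocytes caught in the cell cycle inside breast tumors of humanized mice. They were selected on their RNA counts: at least 3 unique molecular identifiers (UMIs, single captured RNA molecules) of TOP2A and MKI67 together, at least 3 UMIs of the T and NK receptor genes CD3D, CD3E, CD3G, TRAC, NCR1, KLRF1, KLRC1 and KLRD1 together, no FOXP3, at most 1 UMI of CD8A and CD8B, at most 1 of CXCL13 and at most 4 of C1QA, C1QB and LYZ. Of 16327 kept cells, 494 met the rule. Cells with at most 1 UMI of CD3D, CD3G and TRAC together are called NK-like (196 cells), and those with 2 or more are called T-like (298 cells). By reaction, 110 and 86 were NK-like and 145 and 153 were T-like.

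The study asked what the drug maraviroc does to human immune cells in tumors of the breast cancer cell line MDA-MB-231. The hosts were MISTRG mice, which carry human growth factor genes. As newborn pups they were sublethally irradiated and received human CD34+ hematopoietic stem cells from fetal liver, injected into the liver. Tumors of 7 untreated mice and of 7 mice given maraviroc in the drinking water for 10 days from day 21 were taken on day 31, live human CD45+ cells were sorted, and the cells of each mouse were tagged with a hashtag antibody and pooled into 2 droplet reactions. Reaction 1 held 4 untreated and 3 maraviroc mice with 133089612 UMIs over 29120 barcodes, and reaction 2 held 3 untreated and 4 maraviroc mice with 175447534 UMIs over 13582 barcodes. The age of the mice at tumor injection and the stem cell donor of each mouse were not given in the sources used here. The growth factors knocked into the hosts favor human myeloid cells, so these lymphocytes developed in a partly human environment. Depth differed between the reactions, with a median of 2764 UMIs per barcode in reaction 1 and 10204.5 in reaction 2. The filters on detected genes and mitochondrial share left 27645 and 10161 barcodes, and the rule on hashtag UMIs then left 7361 and 8966 kept cells. The hashtag rule thus removed most of these barcodes in reaction 1 but not in reaction 2. Shares of kept cells are counted after this uneven loss. Median depth in cycling NK-like cells was 9528 UMIs in reaction 1 and 12146.5 in reaction 2. Both reactions held 136 identical barcode sequences, 32 of them in kept cells, and 2 member barcodes occurred in the other reaction, where neither was a member.

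Dividing lymphocytes copy their DNA in S phase with the help of nucleotide-making enzymes, replication factors and newly made histones, and then separate the copies in mitosis with cyclins, spindle motors and kinetochore proteins. TOP2A, which untangles DNA, and MKI67, which coats mitotic chromosomes, are transcribed mostly from S phase to mitosis, so that cells in the first gap phase carry little of either. NK cells kill without a rearranged antigen receptor and are known by receptors such as NKp46 (NCR1), CD56 (NCAM1) and NKG2A with its partner CD94 (KLRC1, KLRD1), whereas T cells assemble the antigen receptor (TRAC) with the CD3 chains, and NK cells also transcribe some receptor genes usually assigned to T cells, among them CD247 and the constant region TRDC.

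PBK and XCL2 were named as markers of these cells with earlier results of these data known. The rule did not count them, but their presence is a description and no separate check. XCL2 was not particular to cycling cells, since NK-like cells without TOP2A or MKI67 also held it, as given below. PBK, a mitotic kinase, was at 67.2 CPM (counts-per-million, a gene's UMIs relative to all UMIs summed over a group's cells, with a 95% Poisson interval of 56.7 to 79.0) in cycling NK-like cells and at 62.6 (54.9 to 71.1) in cycling T-like cells, and 43.4% and 43.0% of the cells held a PBK UMI. XCL2, a chemokine that draws cross-presenting dendritic cells, was at 857 CPM (818 to 896) and 728 CPM (701 to 756), in 83.7% and 76.2% of the cells. Among 6076 kept myeloid cells with 20 or more UMIs of C1QA, C1QB and LYZ, which should lack XCL2 and had a median of 13179.5 UMIs per cell, 4.56% held XCL2, and 1.73% held PBK, which dividing myeloid cells also express, against medians of 10685.5 UMIs in cycling NK-like and 12899 in cycling T-like cells. These intervals and shares cover counting error only. Reads could be split between the near-identical genes XCL1 and XCL2, and the same applies to KLRC1 and its family, to CCL3 and CCL4 and their copies, to TRBC1 and TRBC2 and to the histone genes, so that their levels are uncertain.

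The rule itself sets the receptor counts of the NK-like cells, so their name was checked on genes it did not count. NCAM1 was detected in 64.3% of cycling NK-like cells and TRDC in 92.3%, against 1.70% and 3.04% of the myeloid cells. This tells them from myeloid cells but not from T cells. TRDC ran from 398 to 1138 CPM over mice in cycling NK-like cells and from 323 to 879 CPM in cycling T-like cells. The T-like name did not hold for all cells under it. The median T-like cell carried 6 UMIs of CD3D, CD3G and TRAC but also 10 UMIs of the NK receptors NCR1, KLRF1, KLRC1 and KLRD1. Of 298 cells, 150 (50.3%) had 10 or more NK receptor UMIs, 71 had 3 to 9 and 77 had 0 to 2, against 62.2% of NK-like cells with 10 or more. Conversely, 78 T-like cells (26.2%) had 10 or more UMIs of CD3D, CD3G and TRAC, a level reached by 82.2% of 281 cycling CD8 cells (2 or more CD8A and CD8B UMIs) and by 89.6% of 164 cycling FOXP3 cells, and 86 had only 2 or 3. The scatter of receptor UMIs shows a continuous spread across the boundary at 2 UMIs. Since T-like is only a name for the count rule, it is kept below in that sense.

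**Figure D1:**
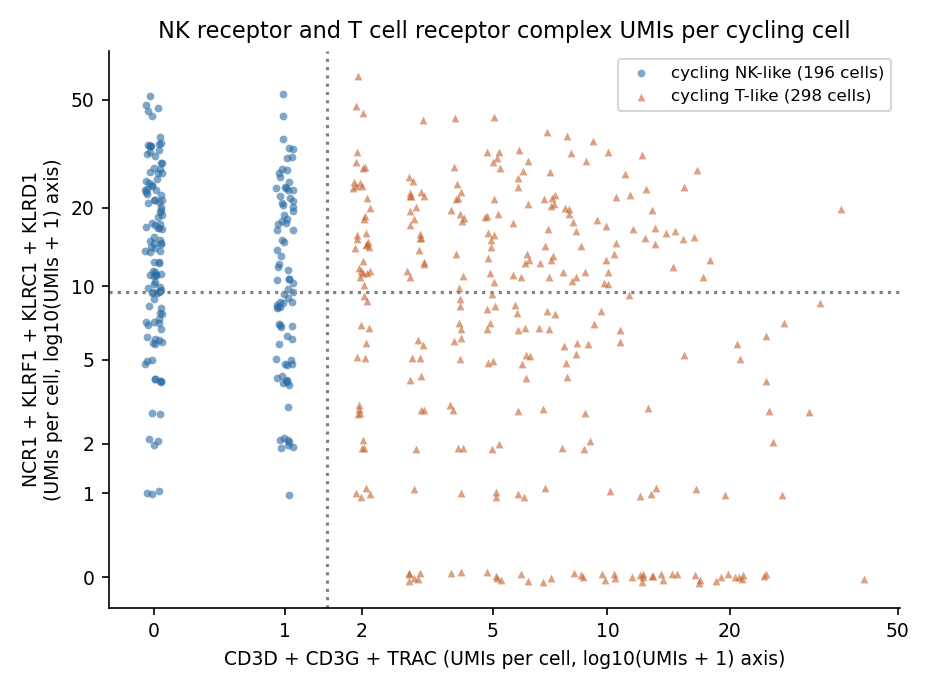
Each point is a cycling cell, with the UMIs of CD3D, CD3G and TRAC on the horizontal axis and the UMIs of NCR1, KLRF1, KLRC1 and KLRD1 on the vertical axis, both on a log10(UMIs + 1) scale with small random offsets. Blue circles are the 196 NK-like cells, orange triangles the 298 T-like cells, the vertical dotted line is the rule's boundary, and 150 T-like cells lie above the horizontal dotted line at 10 NK receptor UMIs.

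The cycling T-like cells differed among themselves along the NK receptor count. This division was made after the values were seen and carries no test. In the 77 cells with 0 to 2 NK receptor UMIs, the co-receptor CD4 was at 120 CPM, its helper ligand CD40LG at 56.7 CPM, CD28 at 102 CPM, ICOS at 284 CPM and CD5 at 76.1 CPM. In the 150 cells with 10 or more, CD4 was at 2.63 CPM, CD28 at 1.31 CPM, ICOS at 27.1 CPM and CD5 at 10.9 CPM, and CD40LG had no UMI. The second group thus carried little of the helper and co-stimulatory genes. It carried the NK genes in their place: NCAM1 was at 391 CPM against 26.3 CPM, TYROBP, the adaptor of activating NK receptors, at 404 against 108 CPM, TRDC at 727 against 119 CPM, the pore-forming granulysin GNLY at 11188 against 1530 CPM and XCL2 at 1007 against 124 CPM. CD3D, CD3G and TRAC are not compared, since the rule counted them. Of the myeloid cells, 9.89% held a CD3D UMI and 8.25% a TRAC UMI, so a cell with 2 or 3 such UMIs can hold some from free RNA. SPP1, a macrophage marker outside the rule, moved with this division. It was at 548 CPM in the 77 cells and at 138 CPM in the 150 cells. All macrophage markers summed to 744 CPM (8 of 9 detected, APOE at 0) and to 206 CPM (9 of 9 detected). These sums include C1QA, C1QB and LYZ, which the rule capped at a fixed number of UMIs together. Median depth was 7711 UMIs in the 77 cells and 14834.5 in the 150 cells. The cap thus allows a higher CPM in the shallower cells, and the sums are given as values only. CD4 was at 249 CPM in the myeloid cells, and the part of their RNA in these values was not tested.

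The same makeup was found in both reactions, with 36, 34 and 75 cells in the 3 ranges of reaction 1 and 41, 37 and 75 in reaction 2. Median UMIs per cell were 7711, 10866 and 14834.5 over the ranges, and in reaction 1 the lowest range had a median of 3905, so a low receptor count and a shallow cell move together there. The share of T-like cells with 10 or more NK receptor UMIs was lowest at 17.6%, in a maraviroc mouse, and highest at 87.5%, in an untreated mouse. In the untreated mice it was 64.7%, 87.5%, 53.3%, 36.4%, 28.6%, 71.4% and 77.8%, and in the maraviroc mice 61.5%, 46.9%, 17.6%, 55.2%, 35.3%, 18.2% and 44.4%. The groups overlap, and no test was run on a share defined after the values were seen. For comparison, 28.1% of cycling CD8 cells and 6.10% of cycling FOXP3 cells had 10 or more NK receptor UMIs.

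How sharply the rule separates cycling from other cells was read from genes it did not count. The 52 NK-like cells just outside it, with 2 UMIs of TOP2A and MKI67, held 1431 CPM of the other mitosis genes, and the 31 cells just inside it, with 3 UMIs, held 1902 CPM. In T-like cells the same step went from 957 CPM in 71 cells to 1598 CPM in 41 cells, and PBK was found in 9.62% and 16.1% of the NK-like and in 7.04% and 7.32% of the T-like cells on either side. Cells without either gene held 284 and 316 CPM, so the cells just outside the rule already carried several times the resting level and lay on a slope without a gap. Cells with 20 or more UMIs of TOP2A and MKI67 (58 NK-like and 97 T-like) reached 8196 and 7970 CPM. The 31 S phase genes did not climb in step with them. They stood at 3506 CPM in NK-like and 3720 CPM in T-like cells with 3 UMIs, reached 4533 CPM in NK-like cells with 5 to 9 and 4235 CPM in T-like cells with 10 to 19, and stood at 3038 and 2982 CPM in those with 20 or more. The 8 HIST1 histone genes, which are also made in S phase, did climb, from 2196 and 1176 CPM with 3 UMIs to 6854 and 6941 CPM with 20 or more.

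**Figure D2:**
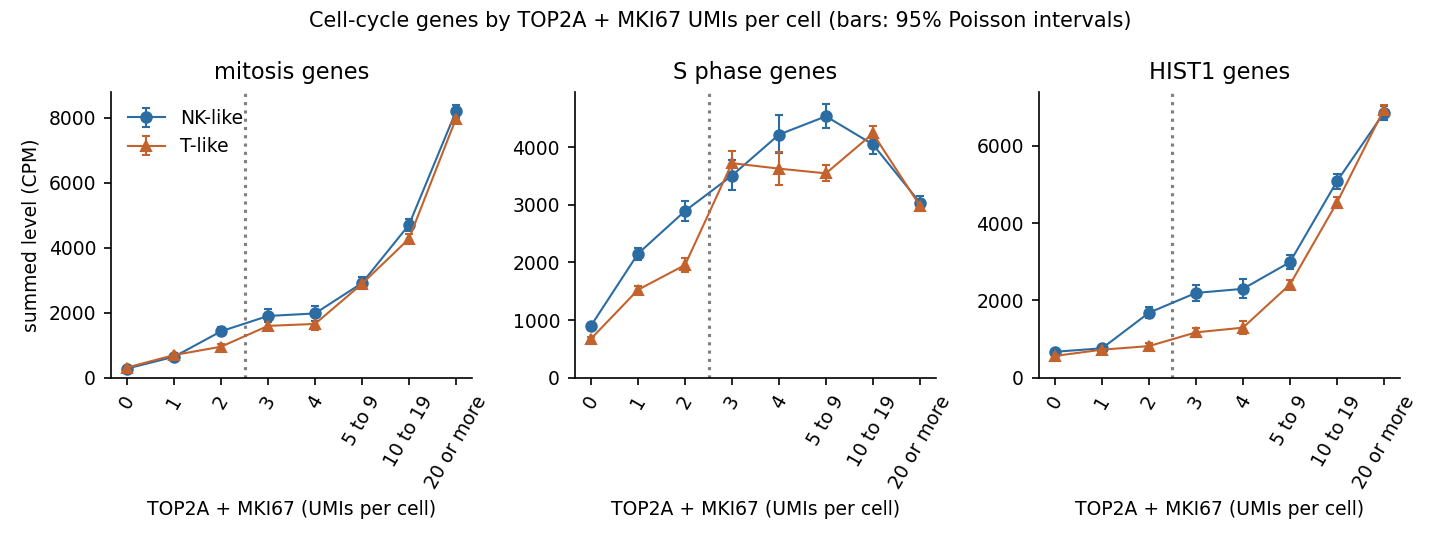
The horizontal axes give TOP2A and MKI67 UMIs per cell and the vertical axes the summed CPM of the listed mitosis genes (without TOP2A and MKI67), S phase genes and HIST1 histone genes, for NK-like cells (blue circles) and T-like cells (orange triangles), with 95% Poisson intervals as bars and the rule's threshold as a dotted line. Mitosis genes climb from 284 and 316 CPM to 8196 and 7970 CPM, while S phase genes are at 3038 and 2982 CPM in the last bin.

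Against cells of the same class without TOP2A or MKI67 (405 NK-like, 1052 T-like), the division genes set the members apart, as the rule would have it, and these values are given as a description. Log2 ratios are of summed CPM with 5 CPM added to each side. In NK-like cells 518 of 9663 genes at 10 CPM or more (5.36%) were at least 2-fold higher and 411 (4.25%) at least 2-fold lower, with a median log2 ratio of 0.03. In T-like cells the counts were 540 of 9546 (5.66%) and 272 (2.85%), with a median of 0.05. All 31 mitosis genes were 2-fold higher in both classes, with median log2 ratios of 3.70 and 3.64. Of the S phase genes, 25 of 30 measured in NK-like and 30 of 31 in T-like cells were 2-fold higher (medians 1.77 and 1.99), and all 17 histone and chromatin genes were (2.84 and 2.93).

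RRM2, the subunit of ribonucleotide reductase that is made for DNA synthesis, led the NK-like cells. Its level per mouse was lowest at 233 CPM, with a median of 481 and a highest value of 757 CPM, against 0, 3.72 and 27.3 CPM in the NK-like cells without TOP2A or MKI67, so no mouse overlapped. HIST1H4C, a histone H4 gene, had a median over mice of 1957 CPM in cycling NK-like cells (1433 to 4265) and of 1874 CPM (998 to 3377) in cycling T-like cells. Most replication-dependent histone mRNAs lack the poly(A) tail on which this kind of library depends, so histone levels here are not the cells' full histone mRNA. CENPF, a kinetochore protein, was at 720 CPM against 23.6 CPM in NK-like cells and at 687 against 18.2 CPM in T-like cells, and ASPM, DLGAP5, UBE2C, GTSE1 and DIAPH3, all genes of spindle, kinetochore or division, were also among the 10 with the largest ratios in both classes, each higher in 14 of 14 mice. The 2 transcription factors that drive the late cell cycle were higher as well: FOXM1 was at 68.5 against 2.40 CPM in NK-like and 55.2 against 4.87 CPM in T-like cells, and MYBL2 at 61.6 against 3.20 and 56.6 against 1.46 CPM. MYC, which promotes growth at the entry into the cycle, was at 17.0 against 19.6 CPM in NK-like and 31.2 against 19.3 CPM in T-like cells, and was higher in 5 and 9 of 14 mice.

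A cell was called S if it held 3 or more UMIs of RRM2, HIST1H1B, HIST1H3B, HIST1H2AJ and CLSPN together, and G2/M if it held 3 or more of CCNB1, CDC20, PLK1, CENPA and UBE2C. With cells thinned to 5000 UMIs, 54.3% of 164 cycling NK-like cells were S only, 8.54% G2/M only, 19.5% both and 17.7% neither. Of 261 cycling T-like cells, 46.0% were S only, 10.7% G2/M only, 23.8% both and 19.5% neither. The other members had fewer UMIs and were left out. In the counts as deposited, 34.7% and 30.9% were S only and 49.5% and 48.0% both, so the split depends on depth, while S only exceeded G2/M only at either depth. The same cutoff was used for both sets, whose levels were not matched. The S set includes HIST1 genes, which as a list were highest (6854 and 6941 CPM) in cells with 20 or more TOP2A and MKI67 UMIs. The calls therefore do not show that more members were in S phase than in G2/M. Cells without TOP2A or MKI67 were neither in 95.6% and 97.0% of cases as deposited.

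Receptor and cytotoxic genes of NK cells were abundant in cycling as in other NK-like cells. None of 12 NK receptor genes and none of 11 cytotoxic granule genes differed 2-fold between cycling NK-like cells and those without TOP2A or MKI67, with median log2 ratios of -0.34 and -0.02, and of all genes only 5.36% and 4.25% did, so the counts are no result about these lists. KLRC1, which the rule counted, was at 844 and 790 CPM, GZMB, the protease granzyme B, at 1397 and 1419 CPM, PRF1, the pore protein perforin, at 211 and 199 CPM, and NCAM1 at 424 and 361 CPM. GNLY was at 10762 against 14158 CPM and higher in the cycling cells of 5 of 14 mice. GNLY in cycling NK-like cells ran from 7760 to 14441 CPM over mice (median 9742), which lies within the range of the other NK-like cells, 6279 to 23480 CPM.

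A few NK genes stood lower in CPM in the cycling cells of nearly every mouse. TYROBP was at 484 against 785 CPM and FCER1G, an adaptor of the same kind, at 509 against 852 CPM, each lower in 14 of 14 mice. Macrophages express both, and macrophage markers outside the rule moved the same way. SPP1 was at 265 against 456 CPM, and 3 of 5 measured genes were at least 2-fold lower in cycling NK-like cells. All 9 markers summed to 377 against 690 CPM, but the rule capped C1QA, C1QB and LYZ at 4 UMIs together in cells of unequal depth (medians 10685.5 and 5763 UMIs). The part of macrophage RNA in the difference was not tested. LTB, a lymphotoxin subunit that organizes lymphoid tissue, was at 160 against 776 CPM and lower in 14 of 14, and the chemokine CCL5 was at 1755 against 3068 CPM and lower in 13 of 14. Cycling cells held more UMIs each, and per cell the order was another: TYROBP was at 5.36 UMIs per cycling cell against 4.85 and FCER1G at 5.65 against 5.27, whereas LTB was at 1.77 against 4.80. LTB was thus lower on both scales, and the adaptors in CPM alone. CCL5 is given in CPM only and is not called lower per cell. Among 11 chemokine and cytokine genes, LTB was also the one that was at least 2-fold lower in CPM, as were 4.25% of all genes. XCL1 and XCL2 were at 650 and 857 CPM against 960 and 976.

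The genes with the largest ratios in favor of the NK-like cells without TOP2A or MKI67 included genes of other cell types. VCAN, a matrix proteoglycan made by monocytes, was at 288 against 16.1 CPM, CCL2 at 235 against 18.4 CPM and JCHAIN, of plasma cells and plasmacytoid dendritic cells, at 153 against 11.5 CPM, and they were higher in 12, 12 and 7 of 14 mice. The plasmacytoid markers LILRA4 and CLEC4C summed to 28.4 CPM there and to 0 in cycling NK-like cells. Ratios against that group therefore include some RNA of other cell types, whose part in the differences was not tested.

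T cell genes were lower in cycling T-like cells, whose makeup differed from that of the cells they are set against. The median cell carried 10 NK receptor UMIs on the cycling side and 0 among T-like cells without TOP2A or MKI67, at unequal depth, so these ratios compare different mixtures of cells and not T cells in and out of the cycle. Of 17 T cell identity genes, 10 were at least 2-fold lower in cycling T-like cells than in T-like cells without TOP2A or MKI67 (median log2 ratio -1.20) and none 2-fold higher. Of all 9546 genes in this contrast, 2.85% were 2-fold lower and 5.66% 2-fold higher. CD3D, CD3G and TRAC, which the rule counted with a fixed number of UMIs in cells of unequal depth, are not read here. The receptor for the survival cytokine interleukin 7, IL7R, was at 22.5 against 189 CPM, the co-stimulatory receptor CD27 at 20.9 against 130 CPM and the inhibitory receptor CTLA4 at 22.7 against 121 CPM, each lower in 14 of 14 mice. Of 13 residency and homing genes, 6 were 2-fold lower, among them S1PR1, which guides lymphocytes out of tissue (3.96 against 24.5 CPM), and 1, the tetraspanin CD9, was higher (74.0 against 30.2 CPM).

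Of the NK genes, 1 of 12 receptor genes and none of 11 granule genes were at least 2-fold higher in cycling T-like cells (median log2 ratios 0.26 and 0.32) and none 2-fold lower. Of all genes 5.66% were 2-fold higher and 2.85% lower, so the counts are no result about these lists. TRDC was at 565 against 297 CPM and higher in 13 of 14 mice, and NCAM1 at 266 against 118 CPM and higher in 12 of 14. EOMES, a transcription factor of cytotoxic lymphocytes, was at 38.8 against 13.8 CPM, and FABP5, a fatty acid carrier, at 230 against 80.6 CPM, each higher in 14 of 14 mice. The median depth was 12899 UMIs in cycling T-like cells and 5562.5 in the T-like cells without TOP2A or MKI67. Markers of mast cells moved with this contrast, since TPSAB1 and CPA3 were at 38.3 and 24.5 CPM in the cells without TOP2A or MKI67 and at 0.529 and 0.264 CPM in the cycling cells, and the part of either difference in the lower T cell genes was not tested.

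**Figure D3:**
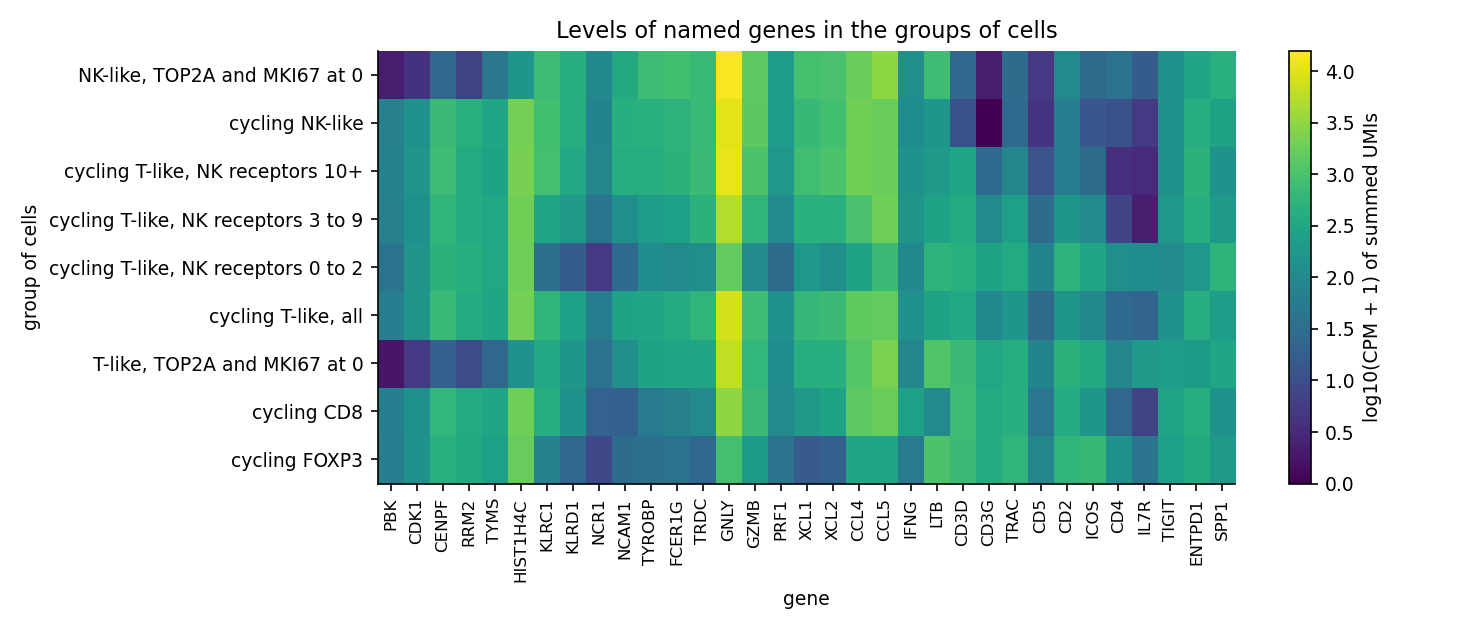
Rows are groups of cells, columns named genes, and the color gives log10(CPM + 1) of UMIs summed over the group. Cell-cycle genes at the left are bright in every cycling group, and cycling T-like cells with 10 or more NK receptor UMIs share the pattern of cycling NK-like cells for NCAM1 (391 and 424 CPM), GNLY (11188 and 10762 CPM) and CD4 (2.63 and 10.6 CPM).

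Cycling T-like and NK-like cells, selected on the same TOP2A and MKI67 count, are set side by side next. Of 9426 genes, 76 (0.806%) were at least 2-fold higher in T-like and 18 (0.191%) at least 2-fold lower, with a median log2 ratio of 0.01, and none of the 31 mitosis, 31 S phase and 17 histone and chromatin genes was among them (medians -0.02, -0.08 and -0.05). The T cell identity genes were, with 9 of 17 at least 2-fold higher, a difference that the rule built in. Outside the rule ICOS was at 90.9 against 12.9 CPM, the adhesion receptor CD2 at 168 against 63.5 CPM, the T cell signaling protein THEMIS at 139 against 54.7 CPM and the Ikaros family factor IKZF2 at 443 against 191 CPM, with ICOS, CD2 and IKZF2 higher in 14 of 14 mice. NK-like cells held more GZMB (1397 against 778 CPM, 14 of 14 mice), GZMH (71.8 against 33.6 CPM, 12 of 14) and the activation marker CD38 (385 against 200 CPM, 12 of 14), and reads of GZMB and GZMH could be split between the pair. The median log2 ratio of T-like over NK-like cells was -0.43 over 12 NK receptor genes and -0.46 over 11 granule genes.

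Inflammatory chemokines, which draw other leukocytes, were abundant in the members. CCL5 was at 1755 and 1568 CPM, CCL4 at 1921 and 1487 CPM and CCL3 at 1028 and 833 CPM. CCL4 varied between mice, from 471 to 4223 CPM in cycling NK-like cells with a median of 1885. Interleukin 2 (IL2), a growth factor for both lineages, had no UMI in cycling NK-like cells and was at 0.264 CPM in cycling T-like cells, and IL2RB, which binds interleukins 2 and 15, was at 272 and 247 CPM.

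Markers of other cells were low but present. The 9 macrophage genes were all detected and summed to 377 CPM in cycling NK-like and 330 CPM in cycling T-like cells, against 16201 CPM in the myeloid cells. Of these genes 6 lie outside the rule. The others, C1QA, C1QB and LYZ, were capped in the members and define the myeloid cells, so selection sets part of this contrast. SPP1, which the rule did not count, was the most abundant in both, at 265 and 227 CPM, against 9287 CPM in the myeloid cells. Per mouse the sum over all members was lowest at 154, with a median of 327 and a highest value of 694 CPM, and was 322 ± 138 CPM in untreated and 403 ± 232 CPM in maraviroc mice (SD, n = 7 each). The tumor cell list, 6 of 6 detected, summed to 56.6 and 77.4 CPM, led by KRT81, the B lineage list, 5 of 5, to 62.1 and 35.4 CPM, led by MZB1, and the dendritic cell list to 21.2 and 17.2 CPM, with FCER1A at 0. GATA3, at 101 and 107 CPM, made up most of the innate lymphoid list (102 and 123 CPM), in which IL1R1 was at 0 in NK-like cells. All 4 erythroid genes were at 0 in cycling NK-like cells and summed to 18.2 CPM in cycling T-like cells, where the 36 UMIs of HBA1 all lay in 1 cell. Per mouse the erythroid sum over all members had a median of 0 and a highest value of 156 CPM, in a maraviroc mouse. HTODemux, another method of reading hashtags, called 19 and 12 members of the reactions doublets and 21 and 1 negative, and the part of doublets in the mixed receptor pattern was not tested.

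The share of each class that was cycling was compared between classes within mice, over the mice as replicates. In NK-like cells it was lowest at 16.2% and highest at 42.9%, with a mean of 26.5% ± 7.96 (SD, n = 14 mice), and in T-like cells it was 10.48% to 43.5%, with a mean of 19.9% ± 8.41. The difference of 6.57 percentage points (SD 11.0) was higher in NK-like cells in 10 of 14 mice, with p = 0.0454 by a two-sided exact sign-flip permutation test and 0.0908 adjusted over 4 class pairs, so that it did not pass the threshold of 0.05. Cycling FOXP3 cells made up 14.1% ± 7.23 of their class, 12.4 points below the NK-like share, with NK-like higher in 14 of 14 mice (exact sign-flip p = 0.000122, the smallest the test can give, adjusted 0.000488). Within reactions this difference was 14.4 and 10.4 points. With HTODemux singlets in place of the hashtag rule it was 2.53 points (p = 0.734, exact test). In mice with 10 or more cells of both classes it was then 7.22 points (p = 0.0195, exact test). The call therefore changed with the hashtag rule, under which 16327 cells were kept, against 19817 with HTODemux singlets.

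Against CD8 cells (27.8% ± 6.44) the NK-like share was 1.33 points lower (SD 6.62, higher in 6 of 14 mice, exact sign-flip p = 0.462, adjusted 0.616), and against CXCL13 cells (28.4% ± 24.4, from 0 to 100%) 1.94 points lower (SD 24.2, exact sign-flip p = 0.803). In mice with 10 or more cells of both classes the NK-like share was instead 10.0 points above the CXCL13 share (p = 0.0156, exact sign-flip test), and 10.47 points above it (p = 0.00684, exact sign-flip test) with cells thinned and classes called again as described next. Classes differ in depth, and with every cell thinned to 3000 UMIs, 2 or more TOP2A and MKI67 UMIs counted as cycling and classes called again the NK-like share was 13.8 points above CD8 cells (p = 0.000366, exact sign-flip test) and 9.20 points above T-like cells (p = 0.00269). In the thinned cells with the original classes these differences were 2.91 and 6.66 points (exact sign-flip p = 0.328 and 0.0135). Thinning left out 102 and 12 NK-like and 187 and 51 T-like cells of the reactions. The order of NK-like, CD8 and CXCL13 cells therefore cannot be read from these data.

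**Figure D4:**
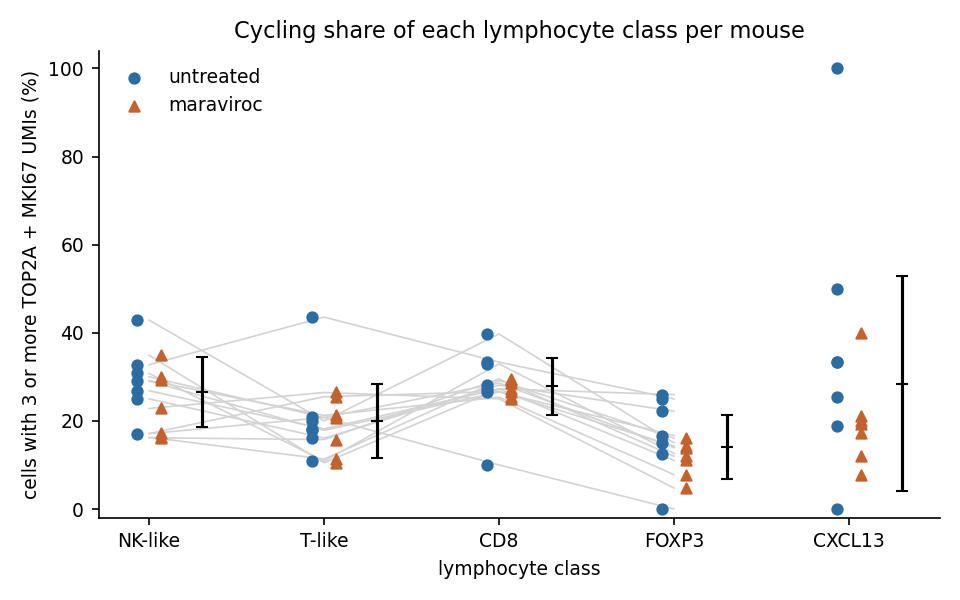
Each symbol is a mouse (circles untreated, triangles maraviroc), the vertical axis is the percentage of a class's cells with 3 or more TOP2A and MKI67 UMIs, gray lines join the classes of a mouse from NK-like to FOXP3, and black bars give the mean and SD over 14 mice. NK-like shares average 26.5% and FOXP3 shares 14.1%, and the CXCL13 class, with few cells per mouse, spans 0 to 100%.

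Maraviroc and untreated mice did not differ detectably in how many of these cells they held. Cycling NK-like cells made up between 0.557% and 3.53% of the kept cells in untreated mice, with a median of 0.951%, and between 0.513% and 1.61% in maraviroc mice, with a median of 1.07%. The means were 1.46% ± 1.03 and 1.11% ± 0.398 (SD, n = 7 each, difference -0.342 points, p = 0.506 by a two-sided exact permutation test). Cycling T-like cells lay between 0.979% and 2.90% (median 1.84%) in untreated and between 0.786% and 2.46% (median 2.01%) in maraviroc mice, with means of 1.89% ± 0.595 and 1.84% ± 0.615 (difference -0.0439 points, exact permutation p = 0.887). The groups overlapped for both shares, and the highest NK-like shares were those of untreated mice.

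Within NK-like cells the cycling share was 17.1%, 29.0% and 42.9% (lowest, median, highest) in untreated and 16.2%, 22.8% and 34.9% in maraviroc mice, with means of 29.2% ± 7.87 and 23.8% ± 7.64 (difference -5.41 points, exact permutation p = 0.219, n = 7 each). Within reactions this difference was -5.91 and -5.17 points, but with a top hashtag share of at least 80% it was 0.186 points. Within T-like cells it was 10.9%, 18.2% and 43.5% in untreated and 10.48%, 20.8% and 26.4% in maraviroc mice, with means of 21.04% ± 10.4 and 18.8% ± 6.42 (difference -2.26 points, exact permutation p = 0.706). Here the reactions pointed in opposite directions, with 5.19 points in reaction 1 (exact permutation p = 0.0286, the smallest possible with 3 and 4 mice) and -8.91 points in reaction 2, and the test of the difference between reactions gave an exact permutation p of 0.0816, 0.327 adjusted over the 4 shares. Adjusted over the 4 shares, the treatment p values were 0.874 for the cycling share of NK-like cells and 0.887 for the others.

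**Figure D5:**
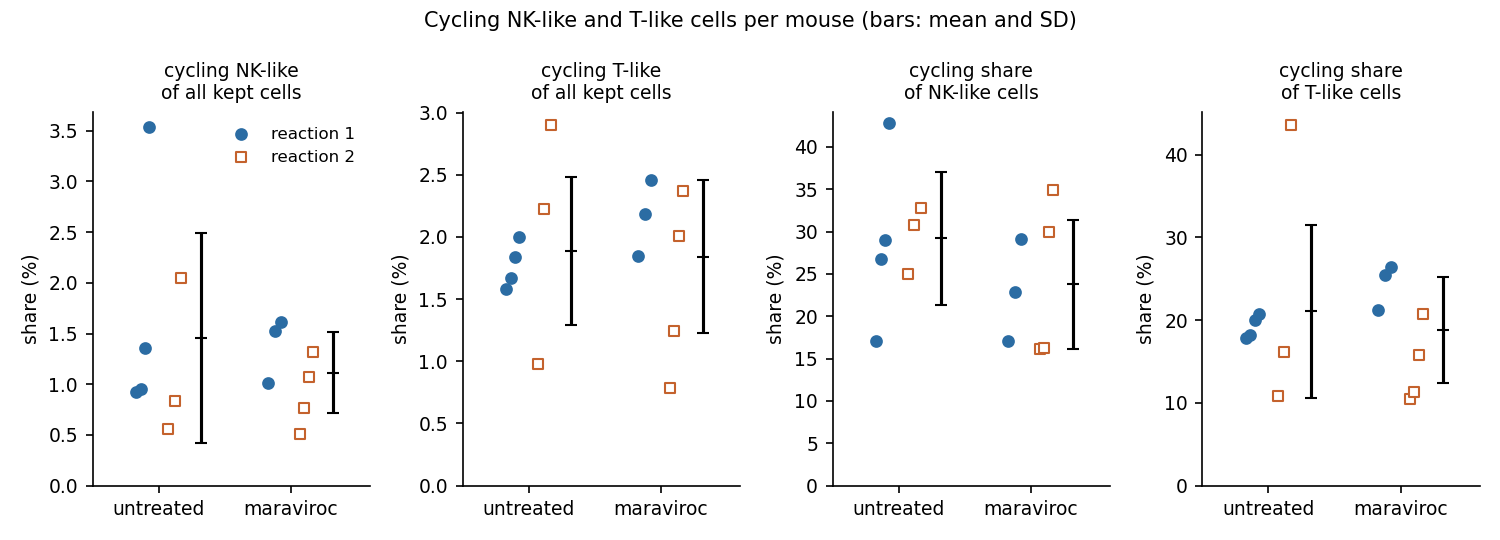
Each symbol is a mouse of reaction 1 (filled circles) or reaction 2 (open squares), the vertical axes give percentages, and the bars give the mean and SD of 7 mice per group. From left to right the means are 1.46% and 1.11%, 1.89% and 1.84%, 29.2% and 23.8%, and 21.04% and 18.8% in untreated and maraviroc mice.

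No gene passed the adjusted threshold between treatments. Counts were summed per mouse and tested with edgeR's quasi-likelihood test with Benjamini-Hochberg adjustment. In cycling NK-like cells (5 untreated and 6 maraviroc mice with at least 10 such cells) 0 of 3931 genes passed (0.0%), 186 (4.73%) had an unadjusted p under 0.05, 99 of them higher with maraviroc, and DESeq2 gave 151 at that level. In cycling T-like cells (7 and 7 mice) 0 of 4964 passed (0.0%), 298 (6.0%) had an unadjusted p under 0.05, 176 of them higher, and DESeq2 gave 261. With both classes summed, 0 of 6468 passed (0.0%), 325 (5.02%) were under 0.05 unadjusted, 183 of them higher, and DESeq2 gave 264. These shares are near the 5% that an unadjusted threshold of 0.05 admits. Without the filter on low counts, 50, 26 and 14 genes passed.

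The genes with the smallest p values are given as values. In cycling NK-like cells TENT4B, a poly(A) polymerase, was at 35.2, 71.5 and 77.5 CPM (lowest, median, highest) in untreated and 86.3, 125.3 and 256 CPM in maraviroc mice (log2 1.24 ± 0.32 SE, edgeR adjusted p = 0.885). ZHX2, a transcriptional repressor, was at 103, 107 and 198 CPM against 28.4, 56.4 and 95.5 CPM (log2 -1.23), and TRIM14, an antiviral adaptor, at 11.9, 29.3 and 46.5 CPM against 56.4, 75.0 and 135 CPM (log2 1.33). The groups did not overlap for these genes. Choosing genes by small p values favors such a lack of overlap, here and for BCAS2 below, so it is no result of its own. At this number of mice none was told apart from the genes tested beside it. In cycling T-like cells BCAS2, a splicing factor, was at 41.6, 69.0 and 74.1 CPM against 88.5, 102 and 164 CPM without overlap (log2 0.81, edgeR adjusted p = 0.483), the RNA ligase RTCB was at 50.9, 90.2 and 115 CPM against 29.6, 44.2 and 52.3 CPM (log2 -0.94), and the spermidine synthase SRM at 61.1, 74.3 and 105 CPM against 23.01, 39.1 and 71.9 CPM (log2 -0.97), both with overlap.

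Interferon-induced genes and replication genes had log2 fold changes of opposite sign in cycling NK-like cells. All 10 interferon genes tested had log2 fold changes above 0 with maraviroc, with a median of 0.46 against -0.02 over all genes tested, 3 of them with an unadjusted p under 0.05 and none adjusted. Over all genes, 1879 of 3920 were above 0, and 4.73% had an unadjusted edgeR p under 0.05. IFI44L was at 23.8, 111 and 172 CPM in untreated and 138, 282 and 328 CPM in maraviroc mice, overlapping in range (log2 1.07 ± 0.29 SE, edgeR adjusted p = 0.885). The 19 S phase genes tested all had log2 fold changes below 0, with a median of -0.33, 2 of them with an unadjusted p under 0.05, but with a top hashtag share of at least 80% 11 of 18 were above 0 (median 0.16). In cycling T-like cells 7 of 10 interferon genes were above 0 (median 0.21) and 19 of 23 S phase genes below 0 (median -0.23). Over all genes the median was 0.003, with 2496 of 4953 above 0 and 2457 below. With at most 1 myeloid UMI per cell 4 of the 10 interferon genes were above 0 in T-like cells (median -0.11). With reaction 2 alone 7 of the interferon genes were above 0 in NK-like cells (median 0.24), with HTODemux singlets 6 of 8 (median 0.24), and over 27 settings the median ran from 0.18 to 0.82. The macrophage marker SPP1 in cycling T-like cells was at 96.1, 159 and 230 CPM in untreated and 90.5, 297 and 885 CPM in maraviroc mice (log2 1.21 ± 0.44 SE, edgeR adjusted p = 0.789), and its part in these values was not tested. Of the mitosis genes, here with TOP2A and MKI67 that the rule used, 23 of 29 were above 0 in NK-like (median 0.21) and 17 of 32 in T-like cells (median 0.01). These medians also turned, to -0.04 in NK-like cells with a top hashtag share of at least 80% and to -0.06 in T-like cells without maraviroc replicate 2. No gene of these lists passed the adjusted threshold, and genes of a list are not independent of each other.

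Genes central to these cells did not pass the threshold either. With both classes summed, PBK was at 46.9, 70.6 and 101 CPM in untreated and 46.1, 48.7 and 78.8 CPM in maraviroc mice (log2 -0.16 ± 0.20 SE), XCL2 at 243, 699 and 1025 CPM against 556, 777 and 1400 CPM (log2 0.29 ± 0.24), and GNLY at 4184, 10233 and 13385 CPM against 5537, 7796 and 11525 CPM (log2 -0.16 ± 0.22). The groups overlapped for all 3 genes. The chemokines CCL3 and CCL4 had log2 fold changes of 0.38 ± 0.24 and 0.24 ± 0.27, with edgeR adjusted p of 0.873 and 0.905.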

How the data were processed

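Cells were prepared with the Chromium 3' v3.1 kit, and the submitters' processing notes name Cell Ranger 9.0.1, GRCh38 and Seurat 5.1.0. The authors deposited raw UMI counts of genes and hashtag antibodies, not normalized. GEO's labels give no treatment per mouse, which was read from how the hashtags are named in the files' feature tables. Barcodes with 601 to 6000 genes, a mitochondrial share under 12.5% and a top hashtag with at least 60% of hashtag UMIs were kept. The members and gene lists were chosen with earlier results of these data known. Named genes were those of the lists, the 10 largest ratios outside the rule among genes at 50 CPM or more, and the 3 smallest p values per treatment test. The fit of both classes together was added after seeing the data. Genes that can differ between persons were left out. Mice were the replicates, and the tests set each difference against the variation between mice. Shares were compared by exact permutation (3432 regroupings, 16384 sign flips). Summed counts were tested with edgeR 4.0.16 (DESeq2 1.42.0 as alternative). The edgeR test was also run on simulated counts, whose outcome is not given here. How small a change it could find with these mice is therefore not stated. HTODemux came from Seurat 5.3.0 and Scrublet from scanpy 1.11.5. The study's methods assigned cells to mice with HTODemux and dropped negative cells and those with several hashtags. Here the hashtag share replaced that step, and HTODemux singlets were an alternative. Some genes are not reported here.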

Additional observations from a re-analysis of the deposited data

Results flagged for a closer look

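Of 26 groups of 7 or fewer mice examined, 3 held a mouse whose distance to its nearest neighbor was large against the group's range, where chance alone gives about 1 in 20 groups. The cycling share of T-like cells in untreated replicate 7 was 43.5%, and the next highest untreated mouse was at 20.8%. BCAS2 in cycling T-like cells of untreated replicate 4 was at 41.6 CPM, and the next lowest untreated mouse was at 64.2 CPM. SRM in cycling T-like cells of maraviroc replicate 3 was at 71.9 CPM, and the next highest maraviroc mouse was at 43.0 CPM.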

How the results depend on the processing

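The NK-like gene test rests on 5 and 6 mice and the T-like test on 7 and 7, and the classes on few receptor UMIs per cell. Treatment differences in shares turned direction in the following settings, with unadjusted exact permutation p above 0.05 except for the cycling share of T-like cells in reaction 1 (p = 0.0286). With a top hashtag share of at least 80% the cycling share of NK-like cells was 0.186 points higher with maraviroc. With HTODemux singlets cycling NK-like and T-like cells of the kept cells were 0.0508 and 0.203 points higher, with at most 1 myeloid UMI T-like cells 0.0659 points higher, and in reaction 1 T-like cells of the kept cells 0.390 and the cycling share of T-like cells 5.19 points higher. Leaving out 1 mouse at a time, the differences ranged from -0.492 to 0.00397 (cycling NK-like of kept cells, the highest without untreated replicate 1), -0.195 to 0.132 (T-like of kept cells), -7.43 to -3.13 (share of NK-like cells) and -3.95 to 1.496 (share of T-like cells, the highest without untreated replicate 7).

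The NK-like minus T-like share was 6.76 points (80% hashtag share), 3.73 (HTODemux, also with 10 or more cells per class), 6.31 (a higher gene minimum), 6.21 (mitochondrial share under 10%), 3.99 (5 or more TOP2A and MKI67 UMIs), 6.56 (at most 1 myeloid UMI), 6.70 (10% highest Scrublet scores removed), 4.99 (reaction 1) and 8.15 (reaction 2), all with p above 0.05, against 8.54 (p = 0.0112, exact sign-flip test) with 2 or more TOP2A and MKI67 UMIs, and 5.20 to 7.91 with 1 mouse left out. NK-like minus CD8 was 0.623 in reaction 1, 2.91 thinned, 13.8 with classes thinned too and -4.39 with HTODemux (p = 0.0479, exact sign-flip test), and -2.02 to -0.411 with 1 mouse left out. NK-like minus FOXP3 was 2.53 with HTODemux and 11.2 to 13.3 with 1 mouse left out. NK-like minus CXCL13 was 1.23 in reaction 1, 10.47 with classes thinned, 10.0 in mice with 10 or more cells of both classes, 4.50 with HTODemux in such mice, and -4.16 to 3.08 with 1 mouse left out.

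Gene counts past the adjusted threshold were 0 in every setting of the 3 fits except without the low-count filter (50, 26 and 14) and for NK-like cells in reaction 2 alone (1). TENT4B, ZHX2, IFI44L, CRTAM and LTB were among the 50, and SPP1 and GZMA among the 26. With 1 mouse left out the count stayed at 0 in all 3 fits. With the reaction as a replicate block it was also 0 in the 3 fits, with 229, 315 and 376 genes under 0.05 unadjusted. Replicate numbers of mice follow hashtag order and pair no mice. Log2 fold changes that turned direction were, in NK-like cells with the 80% hashtag share, ASPM (-0.067), LTB (0.50), MKI67 (-0.10), HELLS (0.28) and PKM (0.082), and with HTODemux LTB (0.38). They were SPP1 (-0.55) in T-like cells with HTODemux, FABP5 in reaction 1 (0.018 in T-like cells, 0.034 in both), PBK in both in reaction 2 (0.079) and CCL4 in both without maraviroc replicate 1 (-0.00028, with up to 0.43 when other mice were left out). Of 1621 log2 values compared, 1603 kept direction and side of the threshold, and 300 of 300 levels moved by less than the spread between mice. Of the planned settings, 2 gave no value: the automatic Scrublet threshold, which marked 0% of reaction 1 and 17.0% of reaction 2, was not run further, and NK-like cells at 20 or more per mouse could not be fitted.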
